A study of Mus musculus with 13 samples.

Results

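The Wnt ligands, their receptors and their secreted inhibitors were followed in epididymal fat, a white adipose depot of the abdomen of male mice. A gene belonged to the set when a probe set that named only it carried a symbol made of Wnt, Fzd, Sfrp or Dkk and a number, or when it was Frzb, Wif1, Lrp5, Lrp6, Porcn, Wls, Axin2, Tcf7l2, Mest, Rspo1, Rspo2 or Rspo3. The rule found 50 members among the 18820 genes measured, and 1 probe set read each of them. They were 19 Wnt ligands, 2 proteins of Wnt secretion, 3 R-spondins, 11 genes with a Frizzled symbol, 2 co-receptors, 6 inhibitors that bind Wnts, 4 Dickkopf proteins, and Axin2, Tcf7l2 and Mest. The Frizzled symbols included Fzd10os, a non-coding RNA opposite Fzd10.

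Wnts are secreted lipid-modified proteins that bind Frizzled receptors and, in the canonical branch, the co-receptors Lrp5 and Lrp6, after which beta-catenin enters the nucleus and acts with TCF factors on target genes. In mouse fat, canonical Wnt signals are known to hold precursor cells back from becoming adipocytes. Several secreted proteins tune the pathway outside the cell: R-spondins raise it by keeping Frizzled receptors at the surface, Sfrp proteins, Frzb and Wif1 bind Wnts, and Dkk1, Dkk2 and Dkk4 act on Lrp5 and Lrp6.

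Gene expression was read on 13 Affymetrix arrays as log2 values, on which a difference of 1 is a doubling. All mice were male and 18 weeks old, and each diet had been fed from 6 weeks of age for 12 weeks. The groups were P2X7 knockout (KO) mice on a high-fat diet with 60% of energy from fat (4 arrays), KO mice on low-fat chow with 13% (3 arrays), and wild-type (WT) mice on the high-fat diet and on chow (3 arrays each). KO mice carried the B6.129P2-P2rx7tm1Gab/J allele throughout life and in all tissues and were backcrossed for 7 generations, and WT mice were C57BL/6. P2X7 is a cation channel opened by extracellular ATP.

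Over all probe sets, the median log2 value of an array was 5.72 to 5.88. Arrays of the same group correlated with each other at 0.993 to 0.998 over the genes. P2rx7 itself read 8.90 to 9.14 in KO high-fat arrays and 7.90 to 8.23 in KO chow arrays, against 9.36 to 9.69 in WT high-fat arrays and 7.91 to 8.41 in WT chow arrays. Whether its probes lie within the altered stretch of P2rx7 is not known here, so these values are no check of the genotype labels. The adipocyte list (7 of 8 markers measured, such as Plin1, Adipoq and Lep) averaged 10.91 or more on every array, and epididymis epithelium markers were near background (6 of 6 measured). Testis markers were near background as well, in 5 of 6 measured. Some arrays stood apart on other lists. The mean of 8 liver transcripts ran from 6.12 to 7.42 in KO high-fat arrays and 7.08 to 7.29 in KO chow arrays, against 6.41 to 8.88 in WT high-fat arrays and 8.52 to 9.43 in WT chow arrays. Its highest values among high-fat arrays were 8.88 in WT replicate 2 and 7.42 in KO replicate 1. The T and B cell list averaged 7.34 in KO high-fat replicate 2, against 5.56 to 6.28 on the other 12 arrays.

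With no detection call in the files, a gene was called near background when its highest group mean lay under 4.48, the 95th percentile of the same value over 990 olfactory receptor genes, which are mostly silent in fat. By this measure 38 members stood above background. The other 12 were Wnt1, Wnt3, Wnt6, Wnt7a, Wnt8a, Wnt9b, Wnt16, Rspo2, Fzd10os, Wif1, Dkk1 and Dkk4. Over all genes, 25.6% were near background.

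Promoters are shown for 5 members on which the results below turn: Wnt2b, Fzd4 and Axin2, which had the largest falls with the high-fat diet in WT mice among ligands, receptors and intracellular members, and Fzd7 and Wnt11, which hold a TCF motif. Each line gives the 250 bases before the gene's annotated start, read 5′ to 3′ on the gene's own strand, from RefSeq on GRCm38.p6, and capitals mark the motif. The windows are chr3:104961710-104961959 on the minus strand for Wnt2b, and on the plus strand chr7:89404116-89404365 for Fzd4, chr11:108920099-108920348 for Axin2, chr7:98834862-98835111 for the first start of Wnt11 and chr1:59481897-59482146 for Fzd7.
Wnt2b: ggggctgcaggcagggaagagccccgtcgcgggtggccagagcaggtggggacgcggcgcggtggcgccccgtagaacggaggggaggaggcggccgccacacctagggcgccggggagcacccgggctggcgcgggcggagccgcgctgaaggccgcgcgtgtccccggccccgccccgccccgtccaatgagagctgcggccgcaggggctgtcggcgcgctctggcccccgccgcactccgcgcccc
Fzd4: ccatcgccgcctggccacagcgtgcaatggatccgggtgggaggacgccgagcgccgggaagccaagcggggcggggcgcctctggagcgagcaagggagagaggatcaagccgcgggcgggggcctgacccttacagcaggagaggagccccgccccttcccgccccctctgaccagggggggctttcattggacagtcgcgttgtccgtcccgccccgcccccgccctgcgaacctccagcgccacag
Axin2: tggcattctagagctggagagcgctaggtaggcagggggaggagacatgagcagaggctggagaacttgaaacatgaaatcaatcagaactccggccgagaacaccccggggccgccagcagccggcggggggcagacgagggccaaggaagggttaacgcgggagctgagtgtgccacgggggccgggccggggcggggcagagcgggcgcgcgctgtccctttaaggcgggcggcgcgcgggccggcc
Wnt11: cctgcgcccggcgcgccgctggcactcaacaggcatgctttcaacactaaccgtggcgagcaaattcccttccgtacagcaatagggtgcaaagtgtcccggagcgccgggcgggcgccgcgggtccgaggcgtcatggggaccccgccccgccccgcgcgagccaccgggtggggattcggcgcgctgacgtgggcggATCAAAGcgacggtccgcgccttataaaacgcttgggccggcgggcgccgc
Fzd7: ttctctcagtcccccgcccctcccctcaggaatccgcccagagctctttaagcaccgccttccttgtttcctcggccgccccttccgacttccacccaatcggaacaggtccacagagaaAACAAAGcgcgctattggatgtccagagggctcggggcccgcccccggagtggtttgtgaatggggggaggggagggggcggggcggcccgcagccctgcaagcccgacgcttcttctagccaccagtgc
The motif was the core that TCF factors bind, searched only in the forms CTTTGAT and CTTTGTT, on both strands. These forms do not overlap each other, and other forms of the core were not searched. In Wnt11 it lay on the minus strand, 51 bases before the start, and in Fzd7 on the minus strand, 130 bases before the start. A promoter entry was found for 32 of the 50 members, with 38 windows in all, and 5 of these windows held a motif, those of Fzd7, Wnt5b, Wnt11, Dkk1 and the second start of Tcf7l2. Among all 32851 windows of the same length, 8.06% held one. The letters are not in the Wnt2b, Fzd4 and Axin2 windows. Sequence outside the 250 bases was not searched, so these genes may hold the motif elsewhere.

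High-fat diet changed 18 of the 50 members in each genotype. In WT mice 4 rose and 14 fell (36%), while 35.8% of all genes passed, 17.7% upward and 18.1% downward. In KO mice 4 rose and 14 fell as well (36%), while 34.2% of all genes passed, 14.5% upward and 19.7% downward. A gene passed when its limma adjusted p, Benjamini-Hochberg over all 18820 genes, was under 0.05. The share of members that passed was thus near the background of the tissue in both genotypes. The median change over members was -0.12 in WT mice and -0.10 in KO mice, beside -0.03 and -0.06 over all genes.

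High-fat and chow arrays did not overlap for 22 members in each genotype. Of these, 7 were higher and 15 lower on the high-fat diet in WT mice, where 20.8% and 22.5% of all genes separated upward and downward. In KO mice 6 were higher and 16 lower, where 17.5% and 25.6% of all genes did. Passing in both genotypes and in 1 direction were 12 members, 66.7% of the list of each genotype. These were Fzd7 and Frzb, which rose, and Wnt2b, Wnt9a, Wnt10b, Porcn, Rspo1, Fzd3, Fzd4, Lrp5, Axin2 and Tcf7l2, which fell. Over all genes, 4860 passed in both and in 1 direction, 75.6% of the KO list and 72.1% of the WT list. No member passed in opposite directions, and 26 passed in neither genotype.

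**Figure D1:**
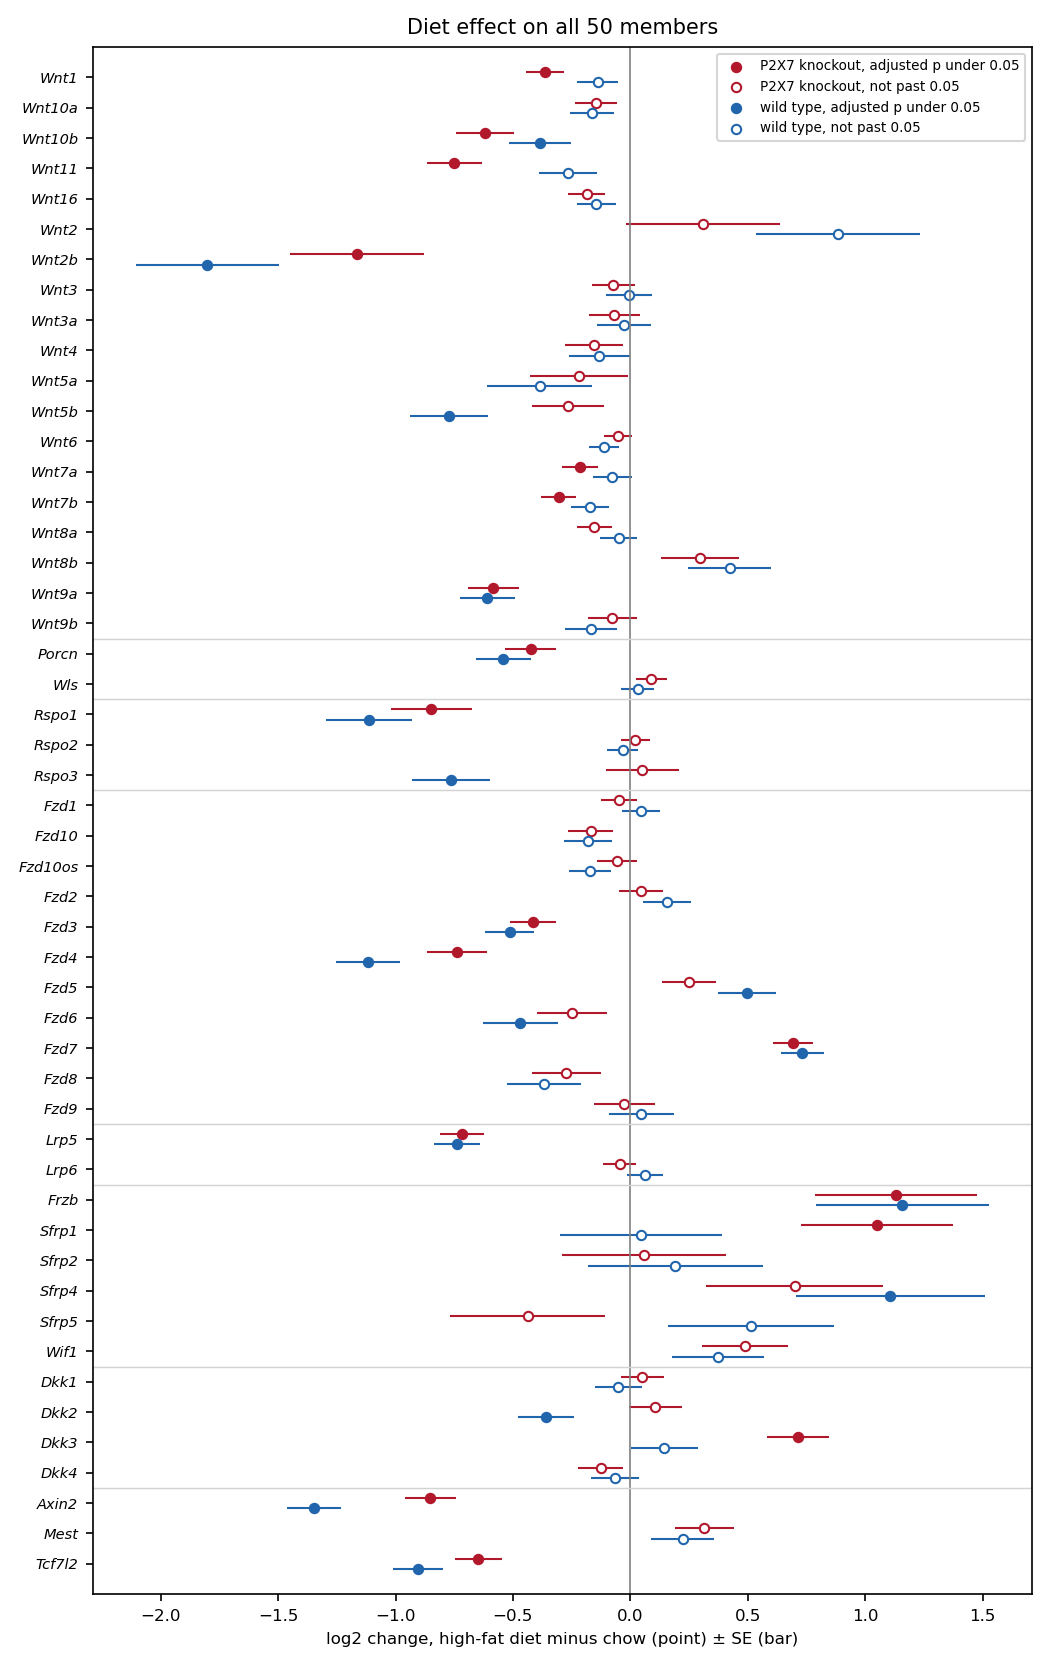
Change with high-fat diet (high-fat minus chow, log2) of the 50 Wnt pathway members, by role, in KO and in WT mice. Points are limma estimates, bars are standard errors and filled points passed at an adjusted p under 0.05, which 18 members did in each genotype.

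Among the 19 ligands, 7 fell in KO mice (36.8%) and 4 fell in WT mice (21.1%), and none rose. Of all genes, 19.7% fell in KO mice and 18.1% in WT mice. The KO count includes Wnt1 and Wnt7a, which were near background. The largest change among the ligands was in Wnt2b, a ligand of the canonical branch. Wnt2b read 7.44, 7.38, 7.34 and 6.98 in KO high-fat arrays, against 8.77, 8.66 and 7.92 in KO chow arrays. In WT mice Wnt2b read 7.59, 7.82 and 6.42 in high-fat arrays, against 8.91, 9.00 and 9.31 in chow arrays. Every high-fat array lay below every chow array of either genotype, and the lowest array of WT high-fat mice (replicate 3) and of KO chow mice (replicate 3) stood apart from the rest of its group. Wnt2b fell by 1.16 ± 0.29 in KO mice (SE, limma adjusted p 0.00627), a 2.24-fold change, and by 1.80 ± 0.31 in WT mice (adjusted p 0.000393), a 3.48-fold change.

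Wnt9a, another ligand, read 5.92, 5.72, 5.91 and 5.81 in KO high-fat arrays, against 6.30, 6.53 and 6.45 in KO chow arrays. In WT mice Wnt9a read 5.59, 5.90 and 5.68 in high-fat arrays, against 6.47, 6.44 and 6.10 in chow arrays. The diets did not overlap in either genotype. It fell by 0.58 ± 0.11 in KO mice (limma adjusted p 0.00101) and by 0.61 ± 0.12 in WT mice (adjusted p 0.00107). Wnt10b, known in mice as an inhibitor of adipocyte formation, read 4.49, 4.36, 4.41 and 4.58 in KO high-fat arrays, against 5.11, 5.02 and 5.11 in KO chow arrays. In WT mice Wnt10b read 4.58, 4.51 and 4.03 in high-fat arrays, against 4.64, 4.69 and 4.94 in chow arrays. The KO diets were clearly apart, while the WT diets were separated by a narrow gap. Wnt10b fell by 0.62 ± 0.12 in KO mice (limma adjusted p 0.00154) and by 0.38 ± 0.13 in WT mice (adjusted p 0.0368). The high-fat means of Wnt10b, 4.46 in KO and 4.37 in WT mice, lay under the background level of 4.48, so the size of these falls is not resolved below that level. The WT call on Wnt10b ended without chow replicate 2 (-0.42, adjusted p 0.055), chow replicate 3 (-0.29, adjusted p 0.143) or high-fat replicate 3 (-0.21, adjusted p 0.164).

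Some ligands passed in 1 genotype. Wnt11, which signals largely without beta-catenin, read 5.95, 6.04, 6.00 and 5.92 in KO high-fat arrays, against 6.77, 6.75 and 6.67 in KO chow arrays. In WT mice Wnt11 read 6.09, 6.26 and 5.76 in high-fat arrays, against 6.15, 6.23 and 6.53 in chow arrays. The KO diets were apart and the WT diets overlapped. Wnt11 fell by 0.75 ± 0.12 in KO mice (limma adjusted p 0.000219), and its change in WT mice was -0.27 ± 0.12 (adjusted p 0.116). The WT value of Wnt11 was -0.13 (adjusted p 0.456) without high-fat replicate 3 and -0.38 (adjusted p 0.0288) without high-fat replicate 2. Wnt5b, known to promote adipocyte formation in mouse cell lines, read 4.89, 4.54, 4.65 and 5.10 in KO high-fat arrays, against 4.99, 4.89 and 5.31 in KO chow arrays. In WT mice Wnt5b read 4.23, 4.72 and 4.45 in high-fat arrays, against 5.42, 5.07 and 5.23 in chow arrays. Here the WT diets were apart and the KO diets overlapped. Wnt5b fell by 0.77 ± 0.17 in WT mice (limma adjusted p 0.00232), where its high-fat mean of 4.46 also lay under the background level. Its change in KO mice was -0.27 ± 0.15 (adjusted p 0.214). The differences between the genotypes' diet effects did not pass, at -0.48 for Wnt11 (adjusted p 0.399) and 0.51 for Wnt5b (adjusted p 0.501).

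Smaller falls in KO mice were those of Wnt1 (-0.36 ± 0.08, limma adjusted p 0.00312), Wnt7b (-0.31 ± 0.08, adjusted p 0.00649) and Wnt7a (-0.22 ± 0.08, adjusted p 0.0443). Wnt1 and Wnt7a were near background in all groups, Wnt7b had a KO high-fat mean under the background level (4.46), and the Wnt7a diets overlapped. The Wnt7a call was lost under 13 of 23 alternatives. Among these were leaving out WT chow replicate 3, any WT high-fat array, KO chow replicate 1 or 2, or KO high-fat replicate 1, 3 or 4, which gave Wnt7a values between -0.24 and -0.17 (limma adjusted p 0.0501 to 0.173).

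Of the ligands that passed nowhere, Wnt5a, the best known ligand of the non-canonical branch, ran between 6.80 and 7.77 over the 13 arrays. Its change was -0.22 ± 0.21 in KO mice (limma adjusted p 0.463) and -0.39 ± 0.22 in WT mice (adjusted p 0.209), and the WT value was -0.20 (adjusted p 0.566) without high-fat replicate 1 and -0.67 (adjusted p 0.00908) without high-fat replicate 2. Wnt2 varied more than 99.3% of genes among arrays of 1 group. It changed by 0.31 ± 0.33 in KO mice (adjusted p 0.513) and by 0.88 ± 0.35 in WT mice (adjusted p 0.0663). WT high-fat replicate 1, at 6.75, held the highest value of Wnt2 on any array. The WT value of Wnt2 was 0.33 without that array (adjusted p 0.248), and it passed without high-fat replicate 2 (1.11, adjusted p 0.0335) or replicate 3 (1.21, adjusted p 0.0189). Wnt8b, at 4.15 to 5.11, changed by 0.42 in WT mice (adjusted p 0.0801). It changed by 0.24 (adjusted p 0.297) without high-fat replicate 2 and by 0.54 (adjusted p 0.0498) without high-fat replicate 1. Wnt3a, Wnt4 and Wnt10a passed in neither genotype.

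Of the proteins that load and release Wnts, 1 fell. Porcn, the enzyme that attaches the lipid to Wnts, fell by 0.42 ± 0.11 in KO mice (limma adjusted p 0.00849) and by 0.54 ± 0.12 in WT mice (adjusted p 0.00252). Wls, the carrier that brings Wnts to the cell surface, ran between 9.68 and 9.96 on all arrays. Its change was 0.09 (95% confidence interval -0.05 to 0.23) in KO mice and 0.03 (-0.12 to 0.18) in WT mice.

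Among the R-spondins, which bind Lgr receptors, Rspo1 fell in both genotypes. Rspo1 read 8.02, 8.10, 8.15 and 7.92 in KO high-fat arrays, against 9.12, 9.08 and 8.49 in KO chow arrays. In WT mice Rspo1 read 8.34, 8.24 and 7.64 in high-fat arrays, against 9.03, 9.23 and 9.30 in chow arrays. As for Wnt2b, all high-fat arrays lay below all chow arrays, and replicate 3 was low in both WT high-fat and KO chow mice. Rspo1 fell by 0.85 ± 0.17 in KO mice (limma adjusted p 0.00175) and by 1.11 ± 0.18 in WT mice (adjusted p 0.000317).

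Rspo3 read 5.17, 5.30, 5.65 and 5.85 in KO high-fat arrays, against 5.55, 5.42 and 5.35 in KO chow arrays. In WT mice Rspo3 read 5.10, 5.29 and 5.54 in high-fat arrays, against 6.24, 6.00 and 5.98 in chow arrays. The 3 WT chow arrays were above all others, and the other groups overlapped. Rspo3 fell by 0.77 ± 0.17 in WT mice (limma adjusted p 0.00248), and its change in KO mice was 0.05 ± 0.15 (adjusted p 0.833).

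The 11 Frizzled symbols moved in both directions. With the diet 1 rose and 2 fell in KO mice, and 2 rose and 3 fell in WT mice. These were 27.3% and 45.5% of them, beside 34.2% and 35.8% of all genes that passed. Fzd4, a receptor for Wnts and for norrin, read 11.10, 10.70, 10.95 and 10.92 in KO high-fat arrays, against 11.54, 11.65 and 11.78 in KO chow arrays. In WT mice Fzd4 read 10.32, 10.93 and 10.69 in high-fat arrays, against 11.91, 11.65 and 11.73 in chow arrays. All high-fat arrays were below all chow arrays. Fzd4 fell by 0.74 ± 0.13 in KO mice (limma adjusted p 0.000512) and by 1.12 ± 0.14 in WT mice (adjusted p 2.39e-05), which is 2.17-fold.

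Fzd7 moved the other way. Fzd7 read 8.32, 8.47, 8.52 and 8.59 in KO high-fat arrays, against 7.77, 7.89 and 7.68 in KO chow arrays. In WT mice Fzd7 read 8.87, 8.55 and 8.79 in high-fat arrays, against 7.99, 8.03 and 8.00 in chow arrays. The diets were apart in both genotypes. Fzd7 rose by 0.69 ± 0.09 in KO mice (limma adjusted p 3.72e-05) and by 0.73 ± 0.09 in WT mice (adjusted p 3.29e-05). Fzd3, known for its part in planar cell polarity, fell by 0.41 ± 0.10 in KO mice (adjusted p 0.00446) and by 0.51 ± 0.10 in WT mice (adjusted p 0.00143).

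Fzd5 rose in WT mice by 0.50 ± 0.12 (limma adjusted p 0.00594), and its change in KO mice was 0.25 ± 0.11 (adjusted p 0.117). Fzd6 fell in WT mice by 0.47 ± 0.16 (adjusted p 0.035), and its change in KO mice was -0.25 (adjusted p 0.233). The Fzd6 call ended without chow replicate 1 (-0.49, adjusted p 0.064), chow replicate 3 (-0.39, adjusted p 0.121) or high-fat replicate 1 (-0.26, adjusted p 0.151) of the WT mice. Fzd8 did not pass in WT mice (-0.37, adjusted p 0.0877), where its value was -0.23 (adjusted p 0.324) without high-fat replicate 3 and -0.56 (adjusted p 0.00421) without high-fat replicate 2. Fzd1, Fzd2, Fzd9 and Fzd10 passed in neither genotype.

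Of the 2 co-receptors, Lrp5 fell in both genotypes and Lrp6 passed in neither. Lrp5 read 8.94, 8.75, 8.73 and 8.62 in KO high-fat arrays, against 9.50, 9.45 and 9.49 in KO chow arrays. In WT mice Lrp5 read 8.54, 8.96 and 8.78 in high-fat arrays, against 9.53, 9.43 and 9.54 in chow arrays. The chow arrays of both genotypes lay close together and above all high-fat arrays. Lrp5 fell by 0.72 ± 0.09 in KO mice (limma adjusted p 4.8e-05) and by 0.74 ± 0.10 in WT mice (adjusted p 5.33e-05). Lrp6 changed by -0.05 (95% confidence interval -0.20 to 0.11) in KO mice and by 0.06 (-0.10 to 0.23) in WT mice.

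Axin2, a part of the beta-catenin destruction complex and a widely used target gene of canonical Wnt signals, had the smallest p of all members in WT mice. Axin2 read 6.69, 6.52, 6.56 and 6.62 in KO high-fat arrays, against 7.33, 7.59 and 7.43 in KO chow arrays. In WT mice Axin2 read 6.26, 6.71 and 6.47 in high-fat arrays, against 7.86, 7.94 and 7.68 in chow arrays. No high-fat array reached any chow array. Axin2 fell by 0.85 ± 0.11 in KO mice (limma adjusted p 4.2e-05), or 1.81-fold, and by 1.35 ± 0.12 in WT mice (adjusted p 1.06e-06), or 2.55-fold.

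Tcf7l2, a TCF factor that binds beta-catenin, read 8.82, 8.61, 8.85 and 8.62 in KO high-fat arrays, against 9.22, 9.59 and 9.31 in KO chow arrays. In WT mice Tcf7l2 read 8.55, 8.74 and 8.89 in high-fat arrays, against 9.62, 9.66 and 9.62 in chow arrays. The diets did not overlap. Tcf7l2 fell by 0.65 ± 0.10 in KO mice (limma adjusted p 0.000217) and by 0.90 ± 0.11 in WT mice (adjusted p 1.85e-05). Mest, an imprinted gene known to follow fat expansion in mice, ran between 11.67 and 12.32. Its change was 0.31 ± 0.13 in KO mice (adjusted p 0.0709), between 0.26 (adjusted p 0.163) without high-fat replicate 1 and 0.40 (adjusted p 0.0232) without high-fat replicate 2. In WT mice the change of Mest was 0.22 ± 0.13 (adjusted p 0.23). It was 0.07 (adjusted p 0.707) without high-fat replicate 2 and 0.37 (adjusted p 0.0395) without high-fat replicate 1. The KO value of Mest also passed without WT high-fat replicate 1 (adjusted p 0.0329) or replicate 2 (adjusted p 0.0239), which enter the shared estimate of the spread. It passed under 7 of 24 alternatives. Among these were a second quantile normalisation (0.34, limma adjusted p 0.043), array weights (0.31, adjusted p 0.0338) and a fit of only the groups compared (0.31, adjusted p 0.0329). The liver covariate was another (0.38, adjusted p 0.0282).

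**Figure D2:**
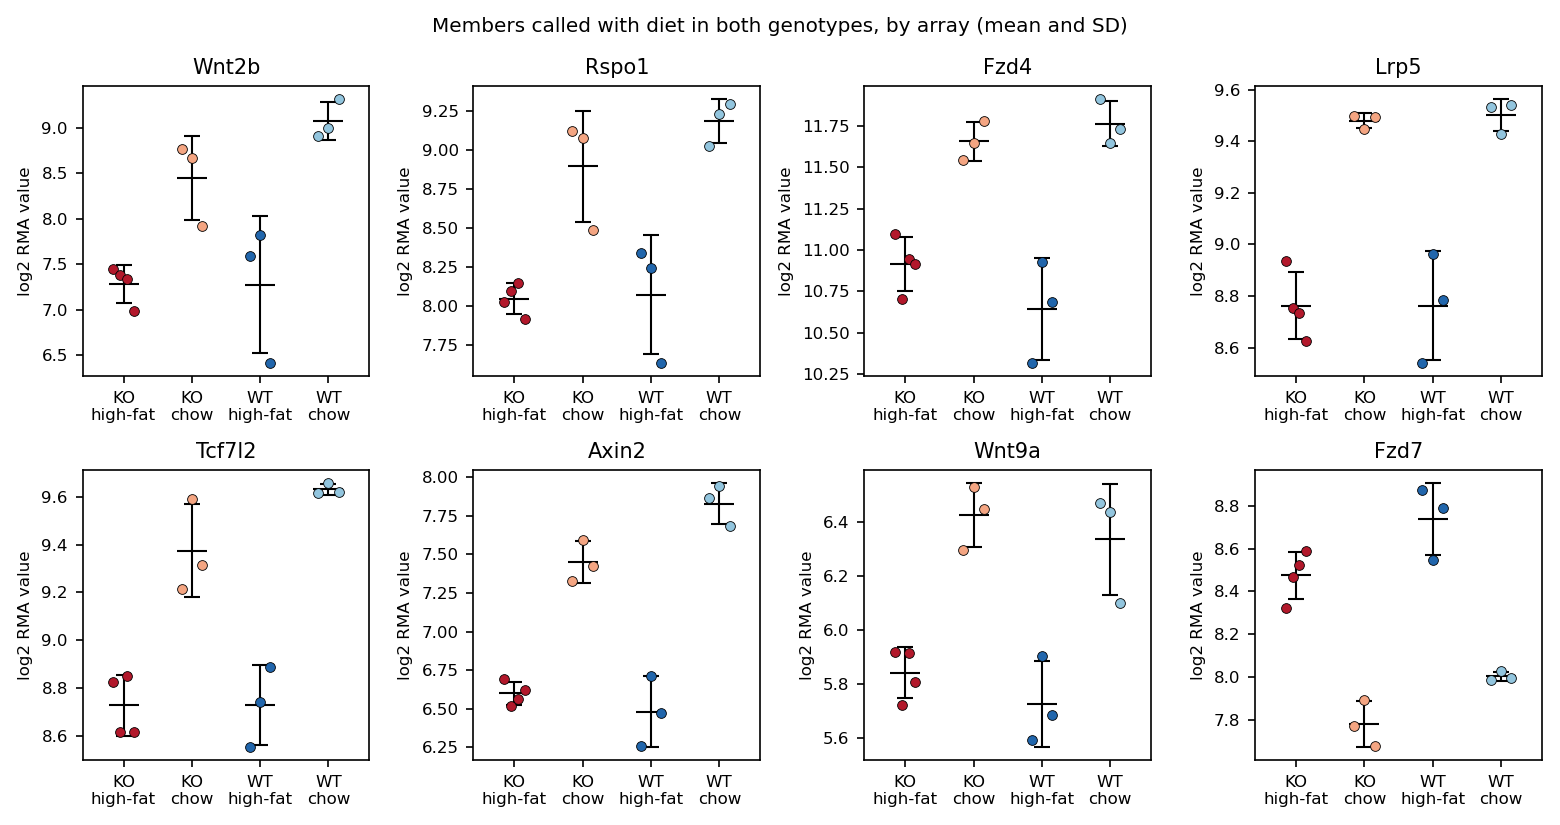
Log2 level of Wnt2b, Rspo1, Fzd4, Lrp5, Tcf7l2, Axin2, Wnt9a and Fzd7 on each array, with groups in the order KO high-fat, KO chow, WT high-fat and WT chow. Points are arrays and bars the group mean ± SD (n = 4, 3, 3 and 3). Fzd7 is higher and the other 7 are lower on every high-fat array than on every chow array of the same genotype.

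Most Wnt-binding inhibitors varied widely among arrays of the same group. The spread within groups of Sfrp1, Sfrp2, Sfrp4, Sfrp5 and Frzb exceeded that of at least 99.3% of all genes. With the diet 2 of the 6 rose in each genotype (33.3%), and none fell. Of all genes, 14.5% rose in KO mice and 17.7% in WT mice. Frzb read 4.04, 5.27, 3.88 and 5.32 in KO high-fat arrays, against 3.57, 3.24 and 3.68 in KO chow arrays. In WT mice Frzb read 4.88, 4.15 and 5.26 in high-fat arrays, against 3.80, 3.38 and 3.64 in chow arrays. The diets did not overlap, but the high-fat arrays were spread widely. All chow arrays lay under the background level of 4.48, as did the high-fat arrays at 4.04 and 3.88 (KO) and 4.15 (WT). The size of the Frzb changes is thus not resolved below that level. Frzb rose by 1.13 ± 0.35 in KO mice (limma adjusted p 0.0218) and by 1.16 ± 0.37 in WT mice (adjusted p 0.0254).

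The Frzb calls rested on few arrays. In KO mice the call ended without chow replicate 1 (1.17, adjusted p 0.0502), chow replicate 2 (1.00, adjusted p 0.0877), high-fat replicate 2 (0.92, adjusted p 0.063) or high-fat replicate 4 (0.90, adjusted p 0.0665). In WT mice the Frzb call ended without chow replicate 2 (1.04, adjusted p 0.0833), chow replicate 3 (1.18, adjusted p 0.0559), high-fat replicate 1 (1.10, adjusted p 0.0709) or high-fat replicate 3 (0.91, adjusted p 0.108).

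Sfrp1 read 9.12, 9.10, 9.69 and 9.67 in KO high-fat arrays, against 8.22, 8.31 and 8.50 in KO chow arrays. In WT mice Sfrp1 read 8.37, 8.70 and 9.74 in high-fat arrays, against 9.59, 8.27 and 8.80 in chow arrays. The KO diets were apart, and the WT arrays of both diets covered nearly the same range. Sfrp1 rose by 1.05 ± 0.32 in KO mice (limma adjusted p 0.0223), and its change in WT mice was 0.05 ± 0.34 (adjusted p 0.938). The KO call on Sfrp1 ended without chow replicate 1 (0.99, adjusted p 0.0723), chow replicate 2 (1.03, adjusted p 0.0644), high-fat replicate 3 (0.95, adjusted p 0.0612) or high-fat replicate 4 (0.96, adjusted p 0.0621). The difference between the genotypes' diet effects on Sfrp1 was 1.00 and did not pass (adjusted p 0.523).

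Sfrp4 read 8.46, 7.98, 8.39 and 8.89 in KO high-fat arrays, against 7.83, 7.91 and 7.45 in KO chow arrays. In WT mice Sfrp4 read 9.11, 8.47 and 7.63 in high-fat arrays, against 6.60, 7.04 and 8.25 in chow arrays. The KO diets were apart by a narrow gap and the WT diets overlapped. Sfrp4 rose by 1.11 ± 0.40 in WT mice (limma adjusted p 0.0462), and its change in KO mice was 0.70 ± 0.38 (adjusted p 0.176). The WT call on Sfrp4 was lost under 17 of 24 alternatives. Among these were leaving out WT chow replicate 1 or 2, WT high-fat replicate 1 or 2, any KO chow array, or KO high-fat replicate 1, 3 or 4, which gave Sfrp4 values between 0.75 and 1.11 (adjusted p 0.0516 to 0.193).

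Sfrp5, which in mouse fat is known as an adipocyte protein that binds Wnt5a, read 10.13, 9.57, 9.70 and 9.48 in KO high-fat arrays, against 10.32, 9.36 and 10.78 in KO chow arrays. In WT mice Sfrp5 read 9.48, 10.32 and 9.11 in high-fat arrays, against 9.44, 8.66 and 9.27 in chow arrays. The diets overlapped in both genotypes. Its change was -0.44 ± 0.33 in KO mice (limma adjusted p 0.347) and 0.51 ± 0.35 in WT mice (adjusted p 0.297). Sfrp2 changed by 0.06 ± 0.35 in KO mice and by 0.19 ± 0.37 in WT mice, and neither passed. Wif1 was near background, and its change in KO mice was 0.49 ± 0.18 (adjusted p 0.0542). That value of Wif1 was 0.33 (adjusted p 0.132) without KO high-fat replicate 1, and it passed without WT high-fat replicate 1 (adjusted p 0.0479), WT high-fat replicate 2 (adjusted p 0.016) or KO high-fat replicate 2 (0.57, adjusted p 0.0388). In all, the KO change of Wif1 passed under 8 of 23 alternatives, array weights and the liver covariate among them.

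Of the 4 Dickkopf proteins, 1 rose in KO mice and 1 fell in WT mice. That is 25% in each, beside 34.2% and 35.8% of all genes that passed. Dkk3, which unlike the other members of its family does not clearly act on Lrp5 and Lrp6, read 6.37, 6.58, 6.48 and 6.83 in KO high-fat arrays, against 5.89, 5.90 and 5.77 in KO chow arrays. In WT mice Dkk3 read 6.62, 6.07 and 6.43 in high-fat arrays, against 6.32, 6.08 and 6.29 in chow arrays. The KO diets were apart, with the KO chow arrays below all others. Dkk3 rose by 0.71 ± 0.13 in KO mice (limma adjusted p 0.000897), and its change in WT mice was 0.14 ± 0.14 (adjusted p 0.477). Dkk2 fell by 0.36 ± 0.12 in WT mice (adjusted p 0.0313), and its change in KO mice was 0.11 (adjusted p 0.511). The Dkk2 call ended without WT chow replicate 1 (-0.27, adjusted p 0.124), chow replicate 3 (-0.38, adjusted p 0.057), high-fat replicate 1 (-0.28, adjusted p 0.13) or high-fat replicate 2 (-0.34, adjusted p 0.0757).

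**Figure D3:**
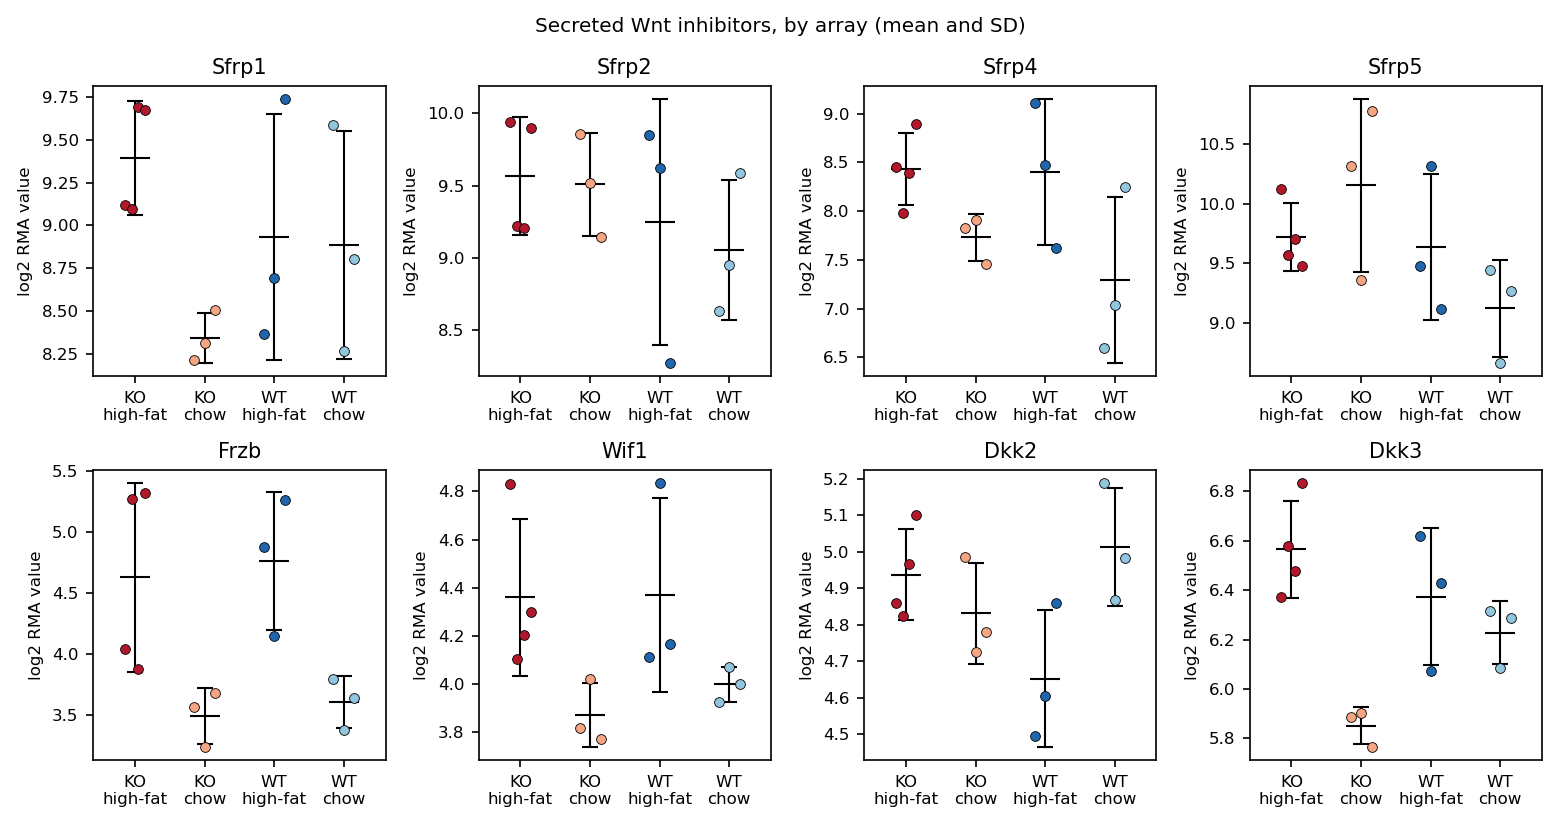
Log2 level of the Wnt-binding inhibitors Sfrp1, Sfrp2, Sfrp4, Sfrp5, Frzb and Wif1 and of Dkk2 and Dkk3 on each array, with groups in the order KO high-fat, KO chow, WT high-fat and WT chow. Points are arrays and bars the group mean ± SD (n = 4, 3, 3 and 3). Arrays of 1 group differ by over 1 log2 unit for several inhibitors, such as Sfrp4 in WT chow mice at 6.60 to 8.25.

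Markers of several cell types moved with the diet. Beside them, 34.2% of all genes passed in KO mice and 35.8% in WT mice. In bulk tissue, fewer cells of a type and less RNA per cell cannot be told apart. The mean of 9 mesothelial markers, such as Upk3b and Msln, ran from 7.87 to 8.17 in KO high-fat arrays, against 8.55 to 9.46 in KO chow arrays. In WT mice the mesothelial mean was 7.35 to 8.49 in high-fat arrays, against 8.92 to 9.29 in chow arrays. Of the 9 mesothelial markers, 9 fell in KO mice and 7 fell in WT mice, and none was near background. WT high-fat replicate 3 (7.35) and KO chow replicate 3 (8.55) had the lowest mesothelial mean of their groups. The same arrays had the lowest Wnt2b (6.42 and 7.92) and the lowest Rspo1 (7.64 and 8.49) of their groups.

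Adipocyte markers averaged 11.07 to 11.41 in KO high-fat arrays, against 12.14 to 12.18 in KO chow arrays. In WT mice the adipocyte mean was 10.91 to 11.40 in high-fat arrays, against 11.98 to 12.15 in chow arrays. In each genotype 6 of 7 fell and 1, the hormone gene Lep, rose. Macrophage markers averaged 10.50 to 10.81 in KO high-fat arrays, against 8.75 to 9.06 in KO chow arrays. The macrophage mean in WT mice was 10.48 to 10.92 in high-fat arrays, against 8.49 to 8.91 in chow arrays, and 8 of 8 rose in each genotype.

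The liver list, whose ranges are given above, averaged 6.65 in KO high-fat arrays, against 7.21 in KO chow arrays, and 7.52 in WT high-fat arrays, against 8.92 in WT chow arrays. Of its 8 genes, 1 fell in KO mice and 4 fell in WT mice, and none rose. The gene that fell in KO mice was Cyp2e1 (-3.50), which had the highest mean of the list (11.04). Cyp2e1 also fell in WT mice (-3.07). The median change over the list was -0.33 in KO mice and -1.52 in WT mice. The progenitor and fibroblast mean was 10.04 to 10.16 in KO high-fat arrays, against 9.80 to 9.89 in KO chow arrays, and 10.01 to 10.24 in WT high-fat arrays, against 9.79 to 9.98 in WT chow arrays. This list was split: of 9 measured, 5 rose and 1 fell in KO mice, and 4 rose and 2 fell in WT mice. Dpp4 fell in both genotypes (-0.71 in KO and -0.68 in WT mice). Endothelial markers averaged 9.61 to 9.96 in KO high-fat arrays, against 9.96 to 10.15 in KO chow arrays, and 9.24 to 9.97 in WT high-fat arrays, against 10.05 to 10.10 in WT chow arrays. Of these 8 markers, 2 fell in KO mice and 5 fell in WT mice, and none rose. The smooth muscle and pericyte mean was 8.30 to 8.70 in KO high-fat arrays, against 8.47 to 8.91 in KO chow arrays, and 7.90 to 8.39 in WT high-fat arrays, against 8.76 to 9.04 in WT chow arrays. Of these 8 markers, 1 rose and 2 fell in KO mice, and 6 fell in WT mice. The part of these cell types in the changes of the Wnt pathway members was not tested.

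**Figure D4:**
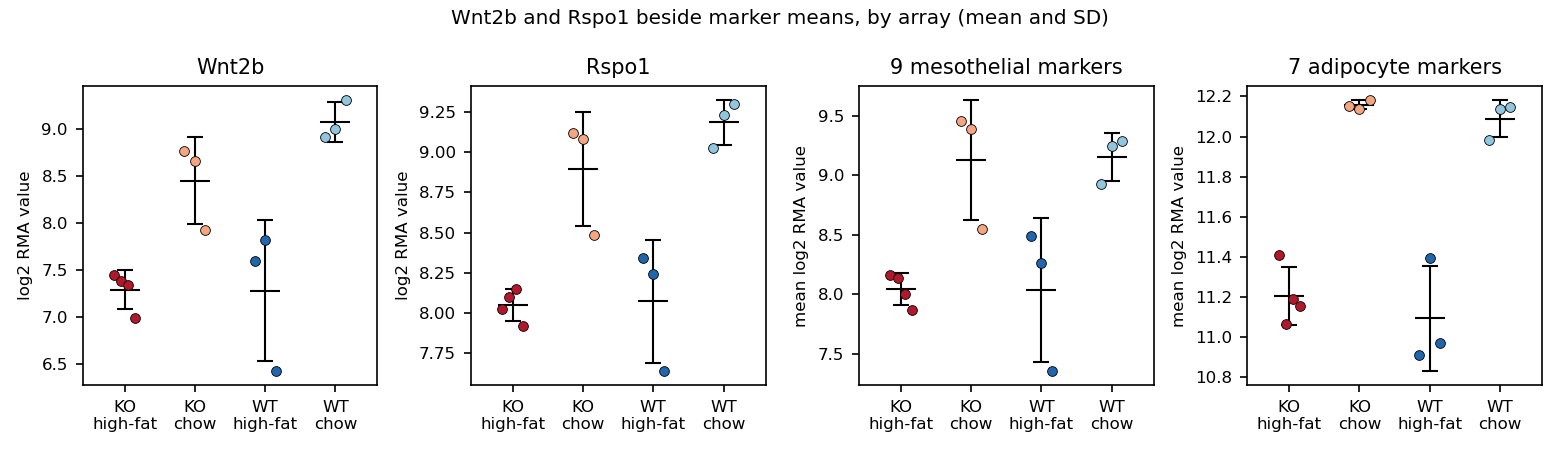
Log2 level of Wnt2b and Rspo1, and mean log2 level of 9 mesothelial and 7 adipocyte markers, on each array, with groups in the order KO high-fat, KO chow, WT high-fat and WT chow. Points are arrays and bars the group mean ± SD (n = 4, 3, 3 and 3). The lowest WT high-fat and the lowest KO chow array are the same in the Wnt2b, Rspo1 and mesothelial panels.

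Other genes of the pathway were read from lists. Their counts stand beside 14.5% of all genes that rose and 19.7% that fell in KO mice. In WT mice these shares were 17.7% and 18.1%. In the intracellular core, 1 of 19 measured genes rose and 7 fell in KO mice, and 7 fell in WT mice, with medians of -0.15 and -0.17. Bcl9l (-0.45 in KO and -0.67 in WT mice), Bcl9 (-0.23 in KO and -0.43 in WT mice) and Pygo1 (-0.56 in KO and -0.55 in WT mice), which help beta-catenin activate transcription, fell. Tcf7l1 (-0.54 in KO and -0.58 in WT mice) and the co-repressor Tle3 (-0.67 in KO and -0.47 in WT mice) fell as well. Tle1 fell in WT mice (-0.39). Ctnnb1, which encodes beta-catenin, changed by 0.10 in KO mice (limma adjusted p 0.25) and by 0.12 in WT mice (adjusted p 0.172).

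Of 17 measured target genes, 4 rose and 4 fell in KO mice, and 5 rose and 6 fell in WT mice, with medians of -0.01 and 0.01. Apcdd1, a membrane inhibitor of Wnt signals, fell by 2.24 in KO mice (limma adjusted p 3.05e-07) and fell by 2.33 in WT mice (adjusted p 2.49e-07). Znrf3, the ligase that removes Frizzled receptors, fell by 0.63 in KO mice and by 0.74 in WT mice. Cd44, which macrophages also express, rose by 1.34 in KO mice and by 2.11 in WT mice. The matricellular genes Ccn5 (1.33 in KO and 1.09 in WT mice) and Ccn4 (0.56 in KO and 0.63 in WT mice) rose, as did the cyclin gene Ccnd1 (0.73 in KO and 0.70 in WT mice). The target list thus held falls and rises in both genotypes, while Axin2 fell.

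Of 20 other extracellular modulators, 2 rose and 6 fell in KO mice, and 3 rose and 7 fell in WT mice. The glypicans, heparan sulfate proteins of the cell surface, moved in both directions. Gpc4 (-0.74 in KO and -1.01 in WT mice) and Gpc3 (-0.76 in KO and -0.98 in WT mice) fell, and Gpc6 rose (0.44 in KO and 0.67 in WT mice). Gpc1 rose in WT mice by 0.73, and its change in KO mice was -0.04. Tspan12, a partner of Fzd4, fell by 0.71 in KO mice and by 0.89 in WT mice, and Cthrc1, a secreted protein that binds Wnts, rose by 0.89 in both.

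Of 18 planar polarity and non-canonical genes, 2 rose and 5 fell in KO mice, and 3 rose and 6 fell in WT mice. Celsr2, an atypical cadherin, fell by 1.15 in KO mice and fell by 1.65 in WT mice. Prickle1 (-0.52 in KO and -0.66 in WT mice), Vangl1 (-0.37 in KO and -0.66 in WT mice) and the receptor Ryk (-0.30 in KO and -0.31 in WT mice) fell. The receptor Ror1 (0.47 in KO and 0.38 in WT mice) and the calcium-responsive factor Nfatc2 (0.47 in KO and 0.84 in WT mice) rose. Of 14 adipogenic regulators and adipocyte genes, 9 fell in KO mice, and 1 rose and 10 fell in WT mice, with medians of -0.64 and -0.72. Among them Cebpa, a master factor of adipocytes, fell by 0.98 in KO mice and by 1.01 in WT mice. Klf15 changed by -1.88 in KO mice and -1.86 in WT mice, and Slc2a4, the insulin-regulated glucose transporter, by -2.25 in KO mice and -2.31 in WT mice. Ebf1 (-0.81 in KO and -1.03 in WT mice), Ebf2 (-0.74 in KO and -1.03 in WT mice) and Srebf1 (-0.90 in KO and -0.87 in WT mice) fell too. Adipoq, Plin1 and Slc2a4 are in this list and among the adipocyte markers above, so the 2 lists are not independent.

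The genotypes were compared on each diet to ask whether loss of P2X7 alters these genes. No member passed, on chow, on the high-fat diet or averaged over both diets, with limma. Without adjustment, 9 of the 50 members had a p under 0.05 on chow, 3 on the high-fat diet and 5 over both diets, beside 9.62%, 7.41% and 7.23% of all genes. Over all genes, 0.133% passed on chow, 0.0425% on the high-fat diet and 0.106% over both diets. KO and WT arrays did not overlap on chow for 10 members, 3 higher and 7 lower in KO mice, where 9.3% and 5.64% of all genes separated upward and downward. On the high-fat diet 1 member, Fzd2 (-0.19, adjusted p 0.697), was lower in all KO arrays and none was higher, where 4.27% and 2.41% of all genes separated downward and upward.

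The lowest adjusted p on chow was that of Rspo3, whose values are given above, at -0.63 ± 0.17 (KO minus WT, limma adjusted p 0.243). All 3 KO chow arrays of Rspo3 lay below all 3 WT chow arrays. The largest difference on chow was that of Sfrp5, at 1.03 (95% confidence interval 0.27 to 1.79, adjusted p 0.366), with overlapping groups. Axin2 (-0.38, adjusted p 0.294), Tcf7l2 (-0.26, adjusted p 0.461), Dkk3 (-0.38, adjusted p 0.411) and Fzd7 (-0.22, adjusted p 0.459) were lower in every KO chow array than in every WT chow array. Wnt11 (0.42, adjusted p 0.28), Wnt10b (0.32, adjusted p 0.451) and Lrp6 (0.18, adjusted p 0.488) were higher in every KO chow array. Wnt2b (-0.63, adjusted p 0.544) and Rspo2 (-0.11, adjusted p 0.635), which is near background, were lower in every KO chow array. None of these differences passed.

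On the high-fat diet the members with an unadjusted p under 0.05 were Fzd7 (-0.26, limma adjusted p 0.595), Fzd1 (-0.20, adjusted p 0.631) and Dkk2 (0.28, adjusted p 0.631), and the groups overlapped for each. Over both diets Fzd7 had the lowest adjusted p of the members (-0.24, 95% confidence interval -0.38 to -0.11, adjusted p 0.318). The others with an unadjusted p under 0.05 over both diets were Fzd1 (-0.15), Lrp6 (0.12), Sfrp5 (0.56) and Wnt10b (0.20), with adjusted p between 0.593 and 0.683. The 8 liver transcripts had a median genotype difference of -0.76 on the high-fat diet and -1.91 on chow, with 0 of 8 passing. The part of this signal in the members' differences was not tested.

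**Figure D5:**
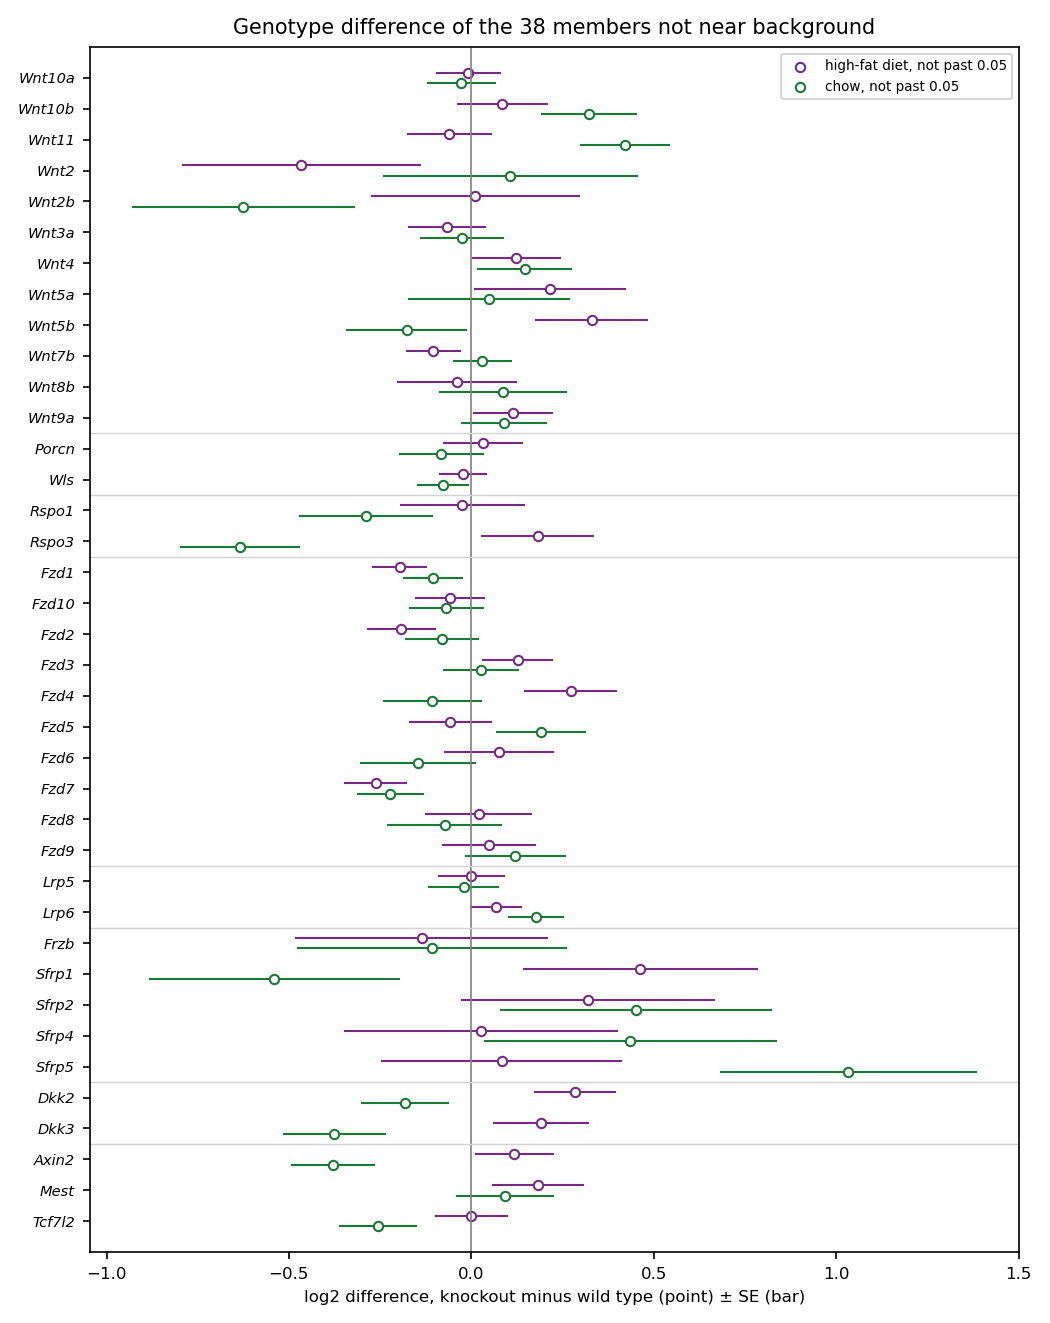
Genotype difference (KO minus WT, log2) of the 38 Wnt pathway members above background, by role, on high-fat diet and on chow. Points are limma estimates and bars standard errors, and no point is filled because none passed at an adjusted p under 0.05.

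The interaction term asked whether the diet acted differently in KO and WT mice. No member passed with limma, and 6 had an unadjusted p under 0.05, while 0% of all genes passed and 1829 had such a p. Those members were Rspo3 (0.82 ± 0.23, 95% confidence interval 0.33 to 1.31, adjusted p 0.342), Axin2 (0.50, adjusted p 0.375), Dkk3 (0.57, adjusted p 0.386), Dkk2 (0.47, adjusted p 0.399), Wnt11 (-0.48, adjusted p 0.399) and Wnt5b (0.51, adjusted p 0.501). A member that passed with the diet in 1 genotype and not in the other was therefore not shown to differ between them.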

How the data were processed

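RNA from epididymal fat, 100 ng per sample, was measured on 13 Affymetrix arrays. RMA, a method that corrects background, normalises between arrays and summarises probes, gave the log2 values that the authors deposited, as named in the submitters' processing notes without a version. No further normalisation was applied. RMA scales arrays to each other, so changes are relative to the tissue's other transcripts. Of 35556 probe sets, 21218 named 1 gene in the platform's annotation, 1881 several and 12457 none; the last 2 kinds were not used. The probe set with the highest mean stood for a gene.

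One limma model (limma 3.58.1, run in R 4.3.3) with 4 group means and an intensity trend was fitted to all arrays and genes. Contrasts were high-fat minus chow in each genotype, KO minus WT on each diet and over both, and the interaction. Calls used a Benjamini-Hochberg adjusted p under 0.05 over 18820 genes. The steps were tested on simulated arrays. The labels do not say that an array held 1 animal, so the p-values reflect only sample-to-sample spread, which may be technical, and the number of arrays limits the precision.

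The 50 members and all lists were chosen with earlier results of these data known. Array values were given for members that passed with at least a 1.5-fold change and for Sfrp5, chosen after its values were seen, and from each pathway list up to 6 passing genes with the largest change in WT mice were named; Ctnnb1 was added as the gene of beta-catenin, after its values were seen. All 50 members matched RefSeq (GRCm38.p6), which gave names, gene order and promoters. Alternatives changed the variance model, scaling, filter, probe sets per gene, array weights, groups fitted and replicate block, or left out each array. A liver covariate and the removal of the array highest on the liver list in each high-fat group were added after seeing the data. Python 3.11.15, pandas 2.3.3, numpy 2.4.6 and matplotlib 3.10.9 drew the figures.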

Additional observations from a re-analysis of the deposited data

Results flagged for a closer look

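In KO mice on the high-fat diet, the only group of 4 arrays, 3 of the 50 members had 1 array far from the other 3 by Dixon's ratio, the gap to the nearest array over the group's range, which exceeded the 95% critical value for 4 arrays. Chance gives about 1 such group in 20. The ratio was 0.951 for Fzd10os, which read 4.02 on 1 array and 4.19 on each of the others, all under the background level. For Wnt10a it was 0.876, with 4.49 on 1 array and 4.71 to 4.74 on the others. For Fzd5 it was 0.868, with 6.40 on 1 array and 6.64 to 6.67 on the others. Fzd10os and Wnt10a passed in no comparison. Fzd5 passed with the diet in WT mice, a call that held in all 24 alternatives, although the KO array enters the shared estimate of the spread. Without that array, KO high-fat replicate 4, the KO change of Fzd5 was 0.31 (limma adjusted p 0.0614). That value did not pass. The KO change of Fzd5 did pass with array weights (0.28, limma adjusted p 0.0314) and with the replicate block (0.31, adjusted p 0.0431). It passed with the liver covariate as well (0.33, adjusted p 0.0284).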

How the results depend on the processing

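Each member's diet effect was recomputed under up to 24 alternatives. Of 36 calls, 28 held in every alternative run and 8 were lost in some, of 64 results that did not pass 14 passed in some, and no direction of a call reversed. The lost calls were Frzb in both genotypes, Sfrp4, Wnt10b, Fzd6 and Dkk2 in WT mice, and Sfrp1 and Wnt7a in KO mice. Members that rose in KO mice numbered 4, but 7 with array weights and 7 when only the groups compared were fitted. In these 2 fits 3114 and 2909 of the 18820 genes rose, against 2721 in the main fit. In either direction, 40.7% and 36.3% of all genes passed in them. Leaving out 1 array gave 2 to 6 risen and 13 to 14 fallen members in KO mice, and 2 to 4 risen and 11 to 16 fallen members in WT mice, while 27.1% to 35.3% of all genes passed in KO mice and 30.2% to 37.4% in WT mice. The risen members in KO mice numbered 2 without KO chow replicate 1, KO chow replicate 2 or KO high-fat replicate 4. In these fits 2392, 2215 and 2543 of all genes rose. The risen members in WT mice numbered 2 without WT chow replicate 2, where 3038 of all genes rose. No member passed by genotype or interaction when 1 array was left out. Over all genes, the interaction gave 106 calls without WT high-fat replicate 2, against 0 with all arrays, and genotype on the high-fat diet 177 calls, against 8; the cause was not tested. With the liver list as covariate, 5 members rose and 13 fell in KO mice, and 5 rose and 12 fell in WT mice, while 31% and 25% of all genes passed. Under it Frzb was 0.95 in KO mice (adjusted p 0.0502) and 0.71 in WT mice (adjusted p 0.289, limma). WT high-fat replicate 2 and KO high-fat replicate 1, each the highest of its group on the liver list, were also left out together. Then 5 members rose and 13 fell in KO mice, and 4 rose and 16 fell in WT mice. In this fit 34% and 36.9% of all genes passed. The WT chow arrays, whose liver mean was 8.52 to 9.43, were kept. Same-numbered arrays did not deviate together throughout: correlations of deviations ran from -0.30 to 0.22 over 18 such pairs, with 6 over 0.1. In 8 of the 18 the same-numbered array correlated best, among them every pair of KO chow with WT high-fat arrays (0.10 to 0.14). Whether the numbers mark shared handling is thus not settled. With the replicate number as a block, 3 members rose and 14 fell in KO mice, and 3 rose and 13 fell in WT mice, beside 29.7% and 35% of all genes, with 0 by genotype or interaction. Only KO high-fat mice had a replicate 4, so the block fit in effect left that array out. The KO changes of Frzb (0.90) and Sfrp1 (0.96) were the same with the block and without that array.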

Other observations

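Among the members, 4 lie on chromosome 5 with P2rx7, counted in measured genes: Fzd10os 58 genes away, Fzd10 59, Fzd9 117 and Fzd1 728. None of these passed in a genotype comparison with limma, and of the 4 only Fzd1, the farthest, had an unadjusted p under 0.05 in one, on the high-fat diet (-0.20, adjusted p 0.631) and over both diets (-0.15, adjusted p 0.593).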
